A study of Mus musculus with 8 samples.

Results

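The renin-angiotensin-mineralocorticoid components are 9 genes chosen by name, namely the angiotensin precursor Agt, the enzymes Ren1 and Ace, the angiotensin receptors Agtr1a, Agtr1b, Agtr2 and Mas1, the receptor-binding protein Agtrap and the mineralocorticoid receptor Nr3c2. Of these 9 genes, 8 had a row among the 33105 genes of the count table, and Agtr1b was not analysed here. Transcripts were counted in messenger RNA libraries from hearts of C57BL/6J mice, 4 from mice with mitral regurgitation made by a minimally invasive operation (labelled MR, which stands for mitral regurgitation throughout and never for the receptor) and 4 from mice labelled Sham. The chamber sampled, the age and sex of the mice, the interval after the operation and any pooling are not stated in the labels, which also do not say that each library came from its own animal. P-values measure only the spread between libraries, which may in part be technical.

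Renin cuts angiotensinogen into angiotensin I, and angiotensin-converting enzyme trims this to angiotensin II, which raises blood pressure and drives growth and fibrosis in the heart through its type 1 receptor. The receptor Mas belongs to a branch of the system that opposes these actions. Angiotensin II also releases aldosterone from the adrenal gland, which acts on the mineralocorticoid receptor in kidney and heart, and drugs against the converting enzyme, the type 1 receptor and this steroid receptor are standard treatments of heart failure.

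In MR hearts the transcript of the main angiotensin II receptor, Agtr1a, was 1.27-fold lower, and it was the 1 member among 6 tested that passed an adjusted p of 0.05 in the edgeR quasi-likelihood test. Over all 16603 genes tested, 0.458% passed that threshold and 0.217% passed with lower values in MR. Ace stood at 64.8 ± 2.51 CPM (counts scaled for library size) in MR hearts and 50.8 ± 5.66 in Sham hearts (SD, n = 4 each), just outside the threshold. Agt and Mas1, both at low levels, lay below Sham in every MR library, Nr3c2 overlapped between the groups, and Agtrap showed a difference near 0. Ren1 was at 0 counts in all 8 libraries.

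In 4 of the 6 tested members no MR value fell within the Sham range, with Ace above it and Agt, Agtr1a and Mas1 below it. The groups did not overlap in 8.09% of all genes tested, with MR above in 4.19% and below in 3.91%. At an unadjusted p of 0.05, 5 of the 6 members and 15.1% of all genes tested passed, 7.78% higher and 7.29% lower in MR. The members were listed with earlier results of these libraries known, so these counts describe them and are no independent evidence.

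**Figure D1:**
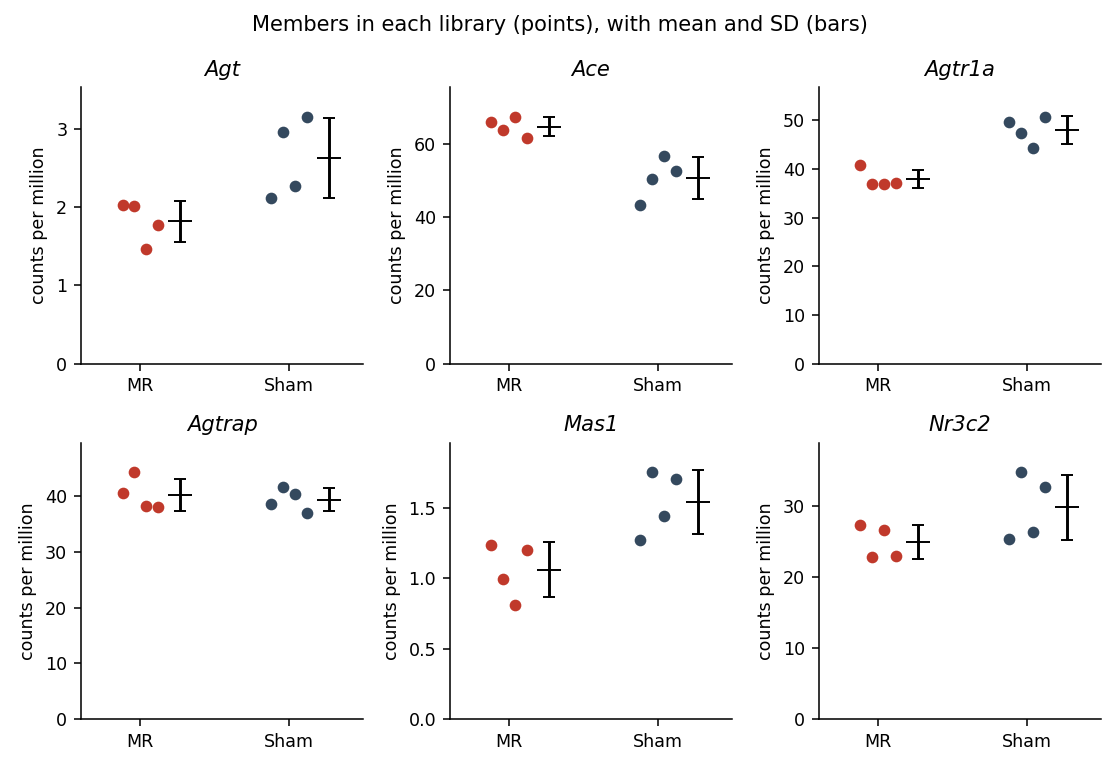
Levels in CPM of the 6 tested members in each of 4 MR and 4 Sham libraries (points), with the group mean and SD (bar) on axes that start at 0. Agtr1a, Agt and Mas1 lie lower in every MR library, Ace lies higher, and Agtrap and Nr3c2 overlap.

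The libraries held 42291511 to 58658094 counts. Where a gene has 0 counts, up to 3 remain possible by counting error alone, which equals 0.0502 to 0.0711 CPM. Genes with 2 counts were 2.27 to 2.82 times as frequent as genes with 1, a pattern of tables that score each end of a read pair, and the limit may then be higher. Heart muscle markers were abundant in every library, with Myh6, a myosin gene of the contractile apparatus, at a mean of 18923 CPM in MR and 23026 CPM in Sham. Summed neutrophil markers, with 5 of 5 detected, held 2.90 to 5.56 CPM in MR and 7.61 to 54.9 CPM in Sham, and their part in the results was not tested. Each fit was repeated without each library, and the number of genes called over the whole table ran from 3 to 887, the highest without Sham replicate 3.

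Agt (ENSMUSG00000031980, protein-coding, chromosome 8, 124556534 to 124569706, GRCm38, minus strand) encodes angiotensinogen, the precursor made mainly in liver. Its levels were 2.02, 2.02, 1.46 and 1.78 CPM in MR replicates 1 to 4 and 2.11, 2.96, 2.27 and 3.15 CPM in Sham replicates 1 to 4. All MR values were below all Sham values, with the narrowest gap between MR replicates 1 and 2 and Sham replicate 1. These values rest on 63 to 106 counts per MR library and 91 to 146 per Sham library. The log2 fold change was −0.53 (SE 0.18, 95% interval −0.91 to −0.15), which did not pass over all genes in edgeR (adjusted p = 0.173). It ran from −0.62 to −0.43 over the 16 other settings and passed in 0 of them, with adjusted p 0.0769 to 0.455.

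Ren1 (ENSMUSG00000070645, protein-coding, chromosome 1, 133350510 to 133360325) encodes renin, the kidney protease that starts the cascade. It held 0 counts in every MR library and every Sham library. At these depths that allows 0.0502 to 0.0711 CPM by counting error, or more if each end of a read pair was scored. It says nothing of renin protein taken up from blood. The prorenin receptor gene Atp6ap2, whose product also serves the vacuolar proton pump, was at 23.2 ± 0.864 CPM in MR and 24.8 ± 2.58 CPM in Sham (SD, n = 4 each; adjusted p = 0.625 in edgeR).

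Ace (ENSMUSG00000020681, protein-coding, chromosome 11, 105967945 to 105989964, plus strand) encodes the angiotensin-converting enzyme of endothelial cells. Its levels were 66.1, 63.9, 67.4 and 61.7 CPM in MR replicates 1 to 4 and 43.3, 50.3, 56.8 and 52.6 CPM in Sham replicates 1 to 4. The lowest MR library stood above the highest Sham library, and the Sham values spread more widely than the MR values, with a coefficient of variation of 3.87% in MR and 11.2% in Sham. The log2 fold change was 0.35 (SE 0.08, 95% interval 0.18 to 0.52), a 1.28-fold difference that did not pass over all genes in edgeR (adjusted p = 0.0678). It passed in 5 of the 16 other settings, among them DESeq2 (adjusted p = 0.00711), limma-voom with quality weights (adjusted p = 0.0246) and the fit without Sham replicate 3 (adjusted p = 0.0106), and the highest adjusted p was 0.176. DESeq2 called 3.76% of the genes it tested, 1.89% higher and 1.88% lower in MR, and limma-voom 2.75%, with 1.49% higher and 1.26% lower. An antisense gene, Gm11651, shares 295 exonic bases with Ace and averaged 0.00419 CPM in MR and 0.0285 CPM in Sham, and whether the counting used strand is not stated.

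Markers of endothelial cells overlapped between the groups but leaned the same way as Ace. Summed over 5 markers, all of them detected, they held 680 to 734 CPM in MR libraries and 561 to 698 CPM in Sham libraries, with 0 of the 5 past the threshold. Sham replicate 1 had the lowest and Sham replicate 3 the highest value of the Sham group for both Ace and these markers. Relative to the summed markers, a ratio added after the data were seen, the log2 level of Ace was −3.45 ± 0.108 in MR and −3.62 ± 0.0879 in Sham (SD, n = 4 each). This difference of 0.17 overlapped between the groups (exact two-sided permutation p = 0.0857, adjusted p = 0.0857 over 3 such ratios), and it is smaller than the log2 fold change of Ace itself. In bulk tissue, more cells of a type and more RNA per cell cannot be told apart.

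The promoters of Ace and Agt are shown because these genes encode the precursor and the enzyme that forms angiotensin II, and their MR values lay on opposite sides of the Sham range although neither gene passed the threshold. The letters are the 250 bases before the RefSeq start on GRCm38.p6, chr11:105967698-105967947 on the plus strand for Ace and chr8:124569707-124569956 on the minus strand for Agt. Capitals mark the TATA box motif TATAAA and the GC box motif GGGCGG, while a search for the steroid receptor motif AGAACA gave no match, and all were searched on both strands.
Ace: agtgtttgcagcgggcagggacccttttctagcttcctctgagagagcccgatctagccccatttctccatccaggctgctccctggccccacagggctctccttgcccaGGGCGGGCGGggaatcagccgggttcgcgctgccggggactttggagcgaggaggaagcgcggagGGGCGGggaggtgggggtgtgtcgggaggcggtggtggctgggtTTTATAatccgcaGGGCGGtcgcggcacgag
Agt: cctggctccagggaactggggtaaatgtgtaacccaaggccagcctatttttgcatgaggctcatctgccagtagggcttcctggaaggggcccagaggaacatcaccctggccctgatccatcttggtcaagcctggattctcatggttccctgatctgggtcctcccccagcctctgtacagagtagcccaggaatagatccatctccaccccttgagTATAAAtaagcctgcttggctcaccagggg
Each window held 1 TATAAA match, which began 31 bases before the start in Ace, on the opposite strand, and 30 bases before it in Agt. The Ace window also held 4 GGGCGG matches, of which a pair overlap, while Agt held 0. Of 32851 promoter windows of this length, 12.4% held TATAAA, 32.7% GGGCGG and 16.1% AGAACA. RefSeq lists another Ace start downstream, and gene-level counts do not separate the starts.

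Agtr1a (ENSMUSG00000049115, protein-coding, chromosome 13, 30336441 to 30382867, plus strand) encodes the main type 1 angiotensin receptor of the mouse, which couples to Gq proteins. Its levels were 40.8, 36.9, 37.0 and 37.0 CPM in MR replicates 1 to 4 and 49.6, 47.5, 44.3 and 50.7 CPM in Sham replicates 1 to 4. Every MR library was lower than every Sham library, and MR replicate 1 stood nearest to the Sham range. The means were 37.9 ± 1.93 CPM in MR and 48.0 ± 2.82 CPM in Sham (SD, n = 4 each). The log2 fold change was −0.34 (SE 0.07, 95% interval −0.49 to −0.19, adjusted p = 0.0483 in edgeR).

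The call for Agtr1a lay close to the threshold. It held in 8 of the 16 other settings, with adjusted p 0.000883 in DESeq2 and 0.0261 in limma-voom. It was lost with scaling by library totals only (adjusted p = 0.0617) and with a filter of 1 CPM in 4 libraries (adjusted p = 0.0512). It was also lost without Sham replicates 2 and 4 (adjusted p 0.110 and 0.168) and without MR replicates 1 to 4 (adjusted p 0.0803, 0.125, 0.139 and 0.101), and it held without Sham replicates 1 and 3 (adjusted p 0.0424 and 0.00774). The log2 fold change itself stayed between −0.38 and −0.30 over these settings. Among them the fits with a library left out have 3 libraries in 1 group.

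Agtr1a has been assigned to pericytes, smooth muscle, fibroblasts and heart muscle cells. Summed markers of pericytes and smooth muscle, with 6 of 6 detected, held 1463 to 1601 CPM in MR and 1300 to 1556 CPM in Sham. Relative to them, the log2 level of Agtr1a was −5.33 ± 0.0887 in MR and −4.91 ± 0.181 in Sham (SD, n = 4 each; exact two-sided permutation p = 0.0286, adjusted p = 0.0857 over 3 ratios). Summed heart muscle markers held 33336 to 39233 CPM in MR and 36882 to 44298 CPM in Sham, with 5 of 5 detected. Relative to those, the log2 level of Agtr1a was −9.91 ± 0.0831 in MR and −9.76 ± 0.0751 in Sham (exact two-sided permutation p = 0.0571, adjusted p = 0.0857). Thus the difference was −0.41 against pericyte and smooth muscle markers and −0.15 against heart muscle markers, beside −0.34 in CPM. Neither ratio passed an adjusted p of 0.05. Rgs5 and Abcc9, at 771 and 500 CPM in MR, made up most of the pericyte and smooth muscle sum. Whether their transcripts came only from those cells was not tested, so the ratio to this sum is no measure against those cells alone. Within that list Acta2 was at a log2 fold change of 0.51 and Myh11 at −0.24. Among the heart muscle markers, Myh6, Tnnt2, Tnni3 and Ryr2 were at log2 fold changes of −0.28, −0.36, −0.33 and −0.06, and Actc1 at 0.18. Myh6, the most abundant of them, was lower in every MR library than in every Sham library, and 0 of the list passed the threshold. Whether the lower sum reflects muscle cell content or these genes themselves was not tested. Summed fibroblast markers, with 5 of 5 detected, held 723 to 797 CPM in MR and 680 to 734 CPM in Sham. No ratio of Agtr1a to them was formed, and the cell source of the difference was not tested. The Agtr1a ratios and the Ace ratio above were added after the data were seen.

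The transcripts of Agtr1a and its close relative Agtr1b (ENSMUSG00000054988, chromosome 3, 20314473 to 20367177) shared 33 of 2922 windows of 50 bases (1.13% of the Agtr1a windows) and 0 of 3071 windows of 100 bases. Agtr1a also contains the intronic gene Gm48161 on its own strand, with 0 shared exonic bases. Gm48161 was at 0.272 CPM in MR and 0.637 CPM in Sham (log2 fold change −1.22, adjusted p = 0.0895 in edgeR).

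Agtr2 (ENSMUSG00000068122, protein-coding, chromosome X, 21484544 to 21489164) encodes the type 2 angiotensin receptor, which is abundant in the fetus and scarce in most adult tissue. It held 0, 0, 4 and 2 counts in MR replicates 1 to 4 and 2, 0, 0 and 2 counts in Sham replicates 1 to 4. It was near the floor of counting in both groups and was not tested.

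Mas1 (ENSMUSG00000068037, protein-coding, chromosome 17, 12841079 to 12868143, minus strand) encodes Mas, a receptor of shorter angiotensin peptides. Its levels were 1.23, 0.997, 0.813 and 1.21 CPM in MR replicates 1 to 4 and 1.28, 1.75, 1.44 and 1.71 CPM in Sham replicates 1 to 4. All MR values were below all Sham values, but MR replicate 1 and Sham replicate 1 nearly met. On 35 to 72 counts per MR library and 55 to 79 per Sham library, the log2 fold change was −0.53 (SE 0.20, 95% interval −0.97 to −0.09, adjusted p = 0.234 in edgeR). It passed in 0 of the 16 other settings. The antisense gene Airn spans part of Mas1 with 0 shared exonic bases. Airn was at 16.6 CPM in MR and 14.3 CPM in Sham (adjusted p = 0.503 in edgeR), far above Mas1. The use of strand in counting is not stated, and whether unspliced Airn reads entered the Mas1 counts was not tested.

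Agtrap (ENSMUSG00000029007, protein-coding, chromosome 4, 148077061 to 148088031, minus strand) encodes a membrane protein that binds the tail of the type 1 receptor and promotes its internalization. Its levels were 40.6, 44.2, 38.3 and 38.0 CPM in MR replicates 1 to 4 and 38.5, 41.7, 40.3 and 37.0 CPM in Sham replicates 1 to 4. The groups overlapped throughout. Between the groups the log2 fold change was 0.03 (SE 0.07, adjusted p = 0.878 in edgeR), with a 95% interval of −0.12 to 0.18 that leaves room for folds of 0.920 to 1.14.

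Nr3c2 (ENSMUSG00000031618, protein-coding, chromosome 8, 76899442 to 77245012, plus strand) encodes the mineralocorticoid receptor, a nuclear receptor that binds aldosterone and corticosterone. Its levels were 27.3, 22.8, 26.5 and 22.9 CPM in MR replicates 1 to 4 and 25.4, 34.7, 26.4 and 32.6 CPM in Sham replicates 1 to 4. Sham replicates 1 and 3 lay within the MR range, and Sham replicates 2 and 4 lay above it. MR over Sham gave a log2 fold change of −0.26 (SE 0.11, 95% interval −0.49 to −0.03, adjusted p = 0.265 in edgeR), and it passed in 0 of the 16 other settings. It was −0.18 without Sham replicate 2 and −0.34 without Sham replicate 1. Gm10649, a noncoding gene on the opposite strand, shares 247 exonic bases with Nr3c2 and was at 0.163 CPM in MR and 0.189 CPM in Sham.

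**Figure D2:**
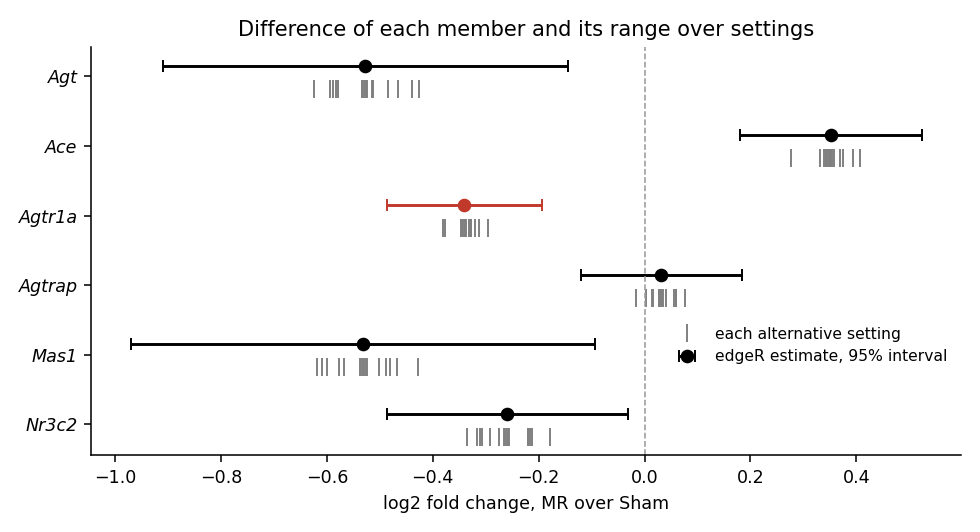
Log2 fold change of MR over Sham for the 6 tested members in edgeR with its 95% interval (dots and bars), and the value under each of 16 other settings (ticks). Agtr1a, drawn in red, passed the threshold, and Agtrap is the member whose interval includes 0.

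Levels of different members were compared per length of exon, in CPM per kb. The exon length merges all annotated transcripts, so a gene with long minor transcripts is understated. Agtr1a led in both groups, at 13.6 ± 0.692 CPM per kb in MR and 17.2 ± 1.01 CPM per kb in Sham (SD, n = 4 each). Ace was second at 12.3 ± 0.474 CPM per kb in MR and 9.60 ± 1.07 in Sham, and Agtrap came next at 9.50 ± 0.683 in MR and 9.29 ± 0.484 in Sham. In MR libraries the lowest Ace value of 11.7 lay above the highest Agtrap value of 10.4 CPM per kb. In Sham libraries Ace at 8.19 to 10.7 and Agtrap at 8.73 to 9.84 CPM per kb could not be ordered beyond their spread.

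The other members stood lower. Nr3c2 was at 3.84 ± 0.364 CPM per kb in MR and 4.60 ± 0.710 in Sham, Agt at 0.962 ± 0.139 in MR and 1.39 ± 0.269 in Sham, and Mas1 at 0.406 ± 0.0752 in MR and 0.590 ± 0.0859 in Sham. The ranges of these neighbours did not overlap within either group. Averaged over the 8 libraries, 87.4% of tested genes lay below Agtr1a on this scale, 82.5% below Ace, 80.1% below Agtrap, 62.8% below Nr3c2, 35.5% below Agt and 21.8% below Mas1. So the receptor and the converting enzyme were among the better expressed genes of the heart, while the substrate and the Mas receptor were in its lower part.

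**Figure D3:**
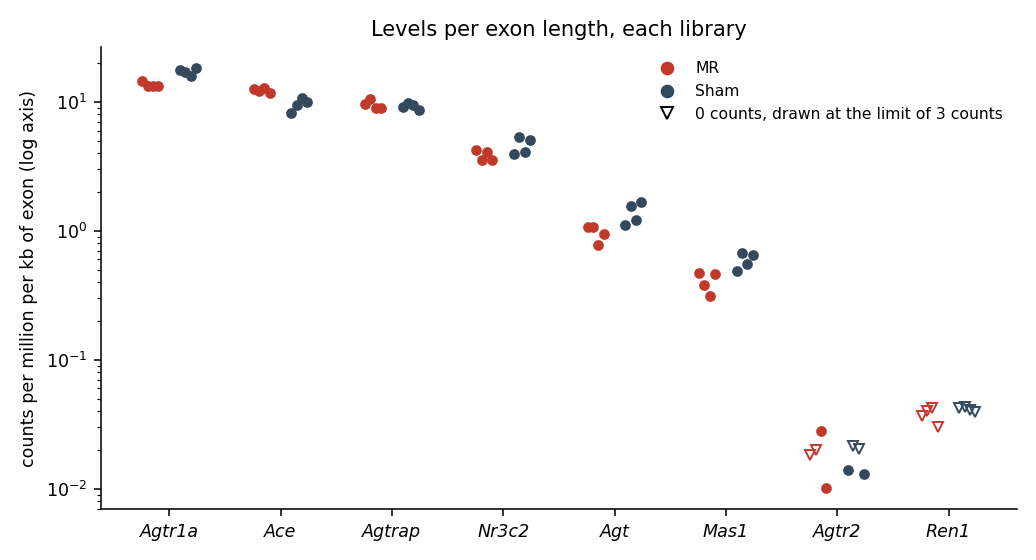
Levels in CPM per kb of exon on a log axis for the 8 members with a row in the table, in each MR library (red, left) and each Sham library (dark blue, right). Open triangles mark libraries with 0 counts, drawn at the limit of 3 counts, as for Ren1 in all 8 libraries, and the levels span from above 10 for Agtr1a to near 0.01 for Agtr2.

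A ratio within a library needs no scaling between libraries, and it set the mineralocorticoid receptor gene against that of the related glucocorticoid receptor. The log2 ratio of Nr3c2 to Nr3c1, the glucocorticoid receptor gene, was −2.10, −2.24, −2.18 and −2.35 in MR replicates 1 to 4 and −1.85, −1.71, −2.07 and −1.60 in Sham replicates 1 to 4. The MR ratios were all lower, with MR replicate 1 and Sham replicate 3 nearly level. The difference was −0.41, with −2.22 ± 0.105 in MR and −1.81 ± 0.206 in Sham (SD, n = 4 each; exact two-sided permutation p = 0.0286). This is the smallest p that the 70 arrangements allow, and it is not adjusted. The plan adjusted this ratio over 3 ratios, and the ratios to cell type markers above were adjusted over 3. Nr3c1 stood at 115 ± 5.19 CPM in MR and 104 ± 10.3 CPM in Sham (adjusted p = 0.370 in edgeR), so neither receptor gene passed by itself. A count ratio depends on gene length, and only the difference between groups is read from it.

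**Figure D4:**
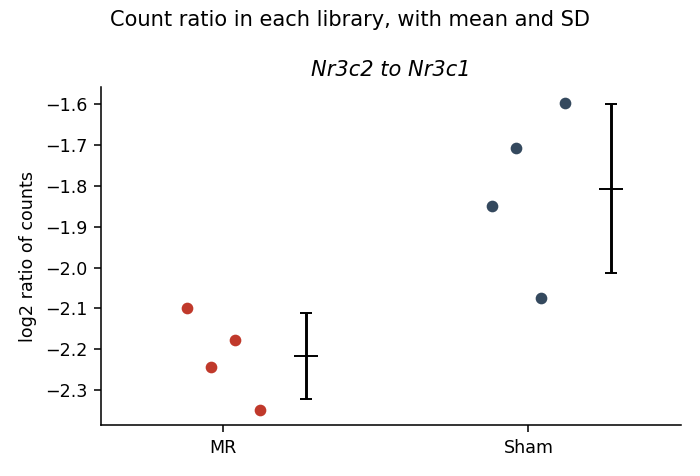
Log2 ratio of read counts, Nr3c2 to Nr3c1, in each MR and Sham library (points) with the group mean and SD (bar); the vertical axis does not start at 0. All 4 MR libraries lie below all 4 Sham libraries.

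Other genes that process or bind angiotensin peptides showed no call. Of 17 listed, 16 were in the table and 15 were tested, of which 0 rose, 0 fell and 15 did not pass in edgeR, while DESeq2 and limma-voom also called 0. At an unadjusted p of 0.05, 1 was higher and 0 lower, where 7.78% of all genes tested were higher and 7.29% lower. The median log2 fold change was 0.16, beside 0.00193 over all genes tested. Of the 15, 11 were positive, where 8370 of all 16603 were. Enpep, the aminopeptidase that turns angiotensin II into angiotensin III, was at 15.2 ± 1.35 CPM in MR and 11.0 ± 3.42 CPM in Sham (SD, n = 4 each; log2 fold change 0.47, adjusted p = 0.231), and it passed with no low-count filter and without Sham replicate 3. The peptidase genes Prep and Nln, whose products cleave angiotensins among other peptides, were at log2 fold changes of 0.14 and 0.20, with adjusted p of 0.362 and 0.430. Mcpt4, a mast cell chymase, was at 0.641 CPM in MR and 0.417 CPM in Sham (adjusted p = 0.368). Summed mast cell markers, with 5 of 5 detected, held 6.62 to 13.5 CPM in MR and 4.27 to 8.72 CPM in Sham. Most of that sum was Kit, at a mean of 8.38 CPM in MR and 4.15 CPM in Sham (adjusted p = 0.234 in edgeR). The markers Cma1, Tpsb2 and Cpa3 were at 0.594, 0.390 and 0.513 CPM in MR and 0.496, 0.299 and 0.424 CPM in Sham. Each of the 5 markers overlapped between the groups.

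Among 28 genes of signalling downstream of angiotensin receptors, 0 rose, 1 fell and 27 did not pass in edgeR, where 0.241% of all genes tested rose and 0.217% fell. Their log2 fold changes had a median of 0.05. Before adjustment, p was under 0.05 for 4 of the 28 with higher values in MR and for 2 with lower values. The matching shares of all genes tested were 7.78% higher and 7.29% lower. The gene that fell was Rgs2, which speeds the switching off of Gq proteins and is known to be induced by angiotensin II. It was at 17.3, 20.8, 19.0 and 22.6 CPM in MR replicates 1 to 4 and 28.3, 34.3, 27.7 and 40.3 CPM in Sham replicates 1 to 4 (log2 fold change −0.71, SE 0.12, adjusted p = 0.0293). Its MR and Sham values were well apart. Rgs2 kept the call in each of the 8 settings that used all libraries, and lost it without MR replicates 1, 2 and 3 and Sham replicates 2 and 4. Nox4, an oxidase that makes hydrogen peroxide, was at 2.26 ± 0.531 CPM in MR and 1.35 ± 0.361 CPM in Sham (log2 fold change 0.74, adjusted p = 0.134), and it passed with no low-count filter. Cybb, the phagocyte oxidase, had a log2 fold change of 0.21 (adjusted p = 0.236), and Prkce, a protein kinase C, of −0.16 (adjusted p = 0.284). The Gq genes Gnaq and Gna11 were at log2 fold changes of 0.04 and 0.06.

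The heart transcripts held little of the enzymes that make aldosterone. Of 11 genes of corticosteroid synthesis and conversion, 9 were in the table and 4 were tested, of which 0 rose, 0 fell and 4 did not pass, with a median log2 fold change of −0.09. At an unadjusted p of 0.05 none of the 4 passed in edgeR, and 0 passed in DESeq2 or limma-voom. Cyp11b2, the aldosterone synthase, held 0 counts in all 8 libraries, which allows 0.0502 to 0.0711 CPM, or more if each end of a read pair was scored. Hsd11b2, which inactivates corticosterone in aldosterone target cells, averaged 0.0612 CPM in MR and 0.0347 CPM in Sham, near the floor. Hsd11b1, which regenerates corticosterone, was at 14.0 ± 1.23 CPM in MR and 14.6 ± 2.95 CPM in Sham (adjusted p = 0.878), H6pd, which supplies its cofactor, at a log2 fold change of −0.15 (adjusted p = 0.546), Star at −0.13 (adjusted p = 0.710) and Por at 0.04 (adjusted p = 0.825).

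Of 11 receptor partners of the corticosteroid receptors, 0 rose, 0 fell and 11 did not pass in edgeR, with a median log2 fold change of 0.05. At an unadjusted p of 0.05, 0 were higher and 1 lower, where 7.78% of all genes tested were higher and 7.29% lower. DESeq2 and limma-voom also gave 0 calls. Hsp90aa1, a chaperone that holds the receptors ready for hormone, was at a log2 fold change of 0.20 (adjusted p = 0.548). Fkbp5, a cochaperone that is also a target of these receptors, was at 33.3, 30.3, 54.5 and 25.7 CPM in MR replicates 1 to 4 and 66.0, 46.6, 49.3 and 69.2 CPM in Sham replicates 1 to 4. MR replicate 3 lay within the Sham range and the other MR libraries lay below it. The log2 fold change was −0.69 (SE 0.25, adjusted p = 0.267).

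Genes known to respond to the mineralocorticoid or glucocorticoid receptor leaned lower, without a call in edgeR. Of 18 listed, 17 were in the table and 16 were tested, of which 0 rose, 0 fell and 16 did not pass in edgeR. The median log2 fold change was −0.19, beside 0.00193 over all genes tested, and 14 of the 16 were negative, where 8233 of all 16603 were. At an unadjusted p of 0.05, 6 were lower and 0 higher, while 7.29% of all genes tested were lower at that threshold. The count of 0 depended on the setting. With no low-count filter, 4 were lower (Tsc22d3, Sgk1, Usp2 and Per1), where 936 genes were called over the whole table, 419 of them lower. Without Sham replicate 1 there were 2 (Cnksr3 and Per1), of 93 genes called, 60 of them lower. DESeq2 called Usp2, limma-voom called Per1 and the fit without Sham replicate 3 called Usp2, 1 gene each. Over all genes tested DESeq2 called 1.88% lower and limma-voom 1.26%. The fit without Sham replicate 3 called 887 genes, 390 of them lower. In all 16 the groups overlapped. Whether either receptor acts on these genes here cannot be read from transcript levels and was not tested.

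Usp2, a deubiquitinase, was at 117, 111, 101 and 102 CPM in MR replicates 1 to 4 and 138, 138, 115 and 145 CPM in Sham replicates 1 to 4 (log2 fold change −0.31, adjusted p = 0.0959 in edgeR). Tsc22d3, the glucocorticoid-induced leucine zipper gene, was at 66.5, 66.7, 86.0 and 64.1 CPM in MR replicates 1 to 4 and 89.8, 86.6, 83.9 and 84.7 CPM in Sham replicates 1 to 4 (log2 fold change −0.28, adjusted p = 0.139). For each of these genes 3 MR libraries stood below the whole Sham range, and MR replicate 1 for Usp2 and MR replicate 3 for Tsc22d3 lay within it. Sgk1, the kinase through which aldosterone stimulates sodium transport, was at 40.7, 48.4, 36.5 and 58.7 CPM in MR replicates 1 to 4 and 58.7, 55.0, 55.9 and 58.8 CPM in Sham replicates 1 to 4 (log2 fold change −0.31, adjusted p = 0.241). MR replicate 4 was level with the highest Sham libraries. Cnksr3, an aldosterone-induced scaffold of the sodium channel, had a log2 fold change of −0.28 (adjusted p = 0.235).

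Of 15 genes known to rise in hearts given angiotensin II, 14 were tested, of which 2 rose, 0 fell and 12 did not pass in edgeR, where 0.241% of all genes tested rose. Their median log2 fold change was 0.40. Nppb, the gene of B-type natriuretic peptide, was at 166 ± 27.9 CPM in MR and 93.0 ± 12.3 CPM in Sham (SD, n = 4 each; adjusted p = 0.0200), and Col1a1, a chain of type I collagen, was at 75.8 ± 4.84 CPM in MR and 43.4 ± 11.2 CPM in Sham (adjusted p = 0.0483). Postn, a matrix protein of activated fibroblasts, was at a log2 fold change of 1.19 (adjusted p = 0.0678), and Rcan1, a target of calcineurin, at 0.35 (adjusted p = 0.0862). DESeq2 and limma-voom each called 7 of the list, where they called 1.89% and 1.49% of all genes higher. With no low-count filter 5 were called, of 936 genes in all, with the length trend removed 4, of 232, and with no robust moderation 3, of 93. Without Sham replicate 3, which gave 887 genes over the whole table, 6 were called, with 1 each without Sham replicate 1, MR replicate 1 and MR replicate 4, and 0 without each of the other 4 libraries. These genes respond to stretch and other stimuli as well, and several were known from these libraries to be higher when the list was written.

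**Figure D5:**
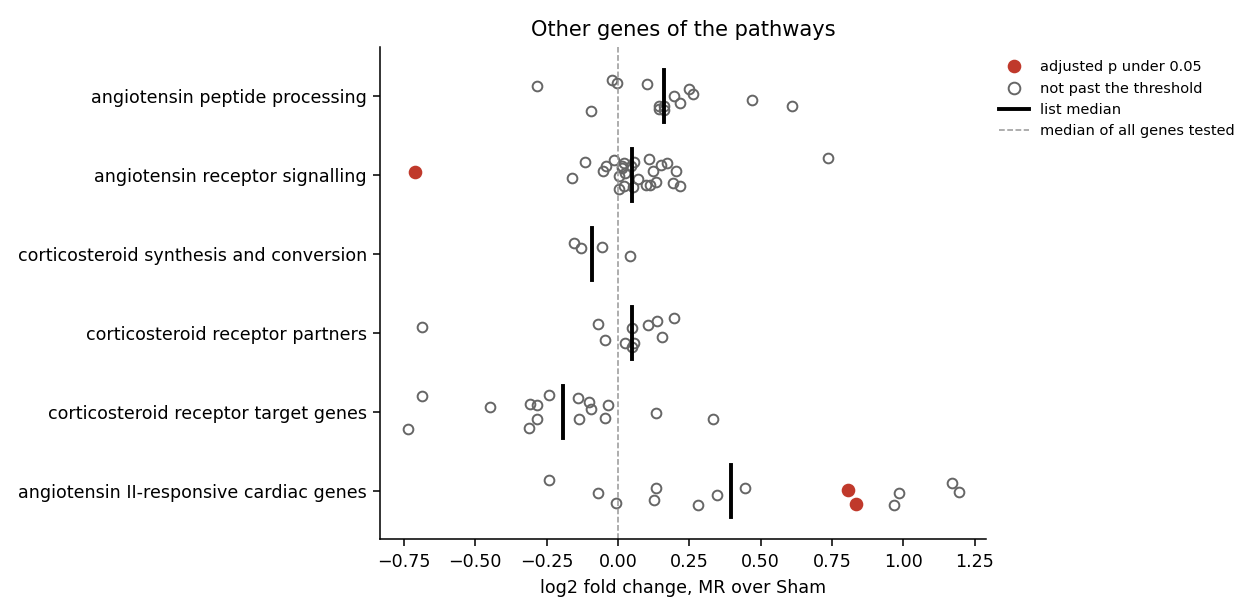
Log2 fold change of MR over Sham for each tested gene of 6 pathway lists (circles, filled red where the adjusted p was under 0.05), with each list's median (bar) and the median of all genes tested (dashed line). The filled points are Rgs2 among signalling genes and Nppb and Col1a1 among angiotensin II-responsive genes, and some genes, such as Fkbp5 and Edn1, appear in 2 lists.

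For each tested member the genes closest in pattern were sought among 12190 others by Pearson's r of log2 CPM over the 8 libraries, as a description. The closest to Agtr1a were Nudcd3 (r = 0.99) and Lgals4 (r = 0.98), of which Lgals4, a galectin, averaged 27.6 CPM in MR and 76.8 CPM in Sham. Map1b, which binds microtubules, and the nuclear receptor gene Ppard were closest to Ace (r = 0.98 each). Dus3l and Clec18a were closest to Agt (r = 0.98 and 0.97), Sugp2 and Zswim1 to Mas1 (r = 0.98 each), Rsbn1l and Kdm4b to Nr3c2 (r = 0.98 and 0.97), and Tspyl5 and Aaed1 to Agtrap (r = 0.95 and 0.89). The highest of so many values over 8 libraries are large by selection, and the libraries share their groups.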

How the data were processed

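The deposited table holds raw read counts per Ensembl mouse gene, a column per library, which the authors made with no normalization that the sources used here give. The submitters' processing notes list HISAT2 2.0.5 and the mm10 build but give neither a role. The counting tool, its annotation and its use of strand are not stated there. Symbols, positions and exon lengths came from GENCODE vM21 (GRCm38, the assembly of mm10), which named 32350 of 33105 identifiers. Promoter sequences are from RefSeq (GRCm38.p6).

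Genes were kept by filterByExpr (minimum count 10, minimum total 15), which left 16603, scaled by TMM and tested in R 4.3.3 with the robust quasi-likelihood fit of edgeR 4.0.16 (glmQLFTest). Benjamini-Hochberg adjustment ran over all genes tested, with a threshold of 0.05. CPM values use the TMM-scaled library sizes of the tested genes. The standard error is the log2 fold change divided by the square root of F. Ratios of counts added 0.5 to each and an exact two-sided permutation test. Alternatives were RLE scaling, library totals, no filter, a filter of 1 CPM in 4 libraries, limma-voom with quality weights (limma 3.58.1), DESeq2 1.42.0, no robust moderation, removal of a gene length trend and each library left out. The tests were also run on simulated counts with the same dispersion for every gene, and the results of that run are not reported here.

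The members and lists were chosen with earlier results of these data known. Besides the members, the text names up to 4 genes of each list, called genes first and then by p, the genes of the ratio and the 2 genes most like each member. Atp6ap2, Cyp11b2, Hsd11b2, Gnaq, Gna11, Per1, the cell type markers named singly and the genes overlapping members fall outside this rule. They were named after their values were seen. The planned ratio of Agtr1a to Agtr1b was not analysed here, and some results that the rule and the plan would name are not reported here. Replicate numbers follow accession order and only name libraries.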

Additional observations from a re-analysis of the deposited data

Results flagged for a closer look

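Among 14 groups of 4 values checked (6 members and 1 ratio in MR and Sham), 1 stood out. The Agtr1a level of MR replicate 1 was 40.8 CPM, where the other MR libraries lay between 36.9 and 37.0 CPM, so that its gap to the nearest value took 0.967 of the group's range. Without this library the log2 fold change of Agtr1a was −0.38 (adjusted p = 0.0803 in edgeR), against −0.34 with it. Chance alone flags about 1 in 20 such groups.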

How the results depend on the processing

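Over 16 alternative settings the 6 tested members gave 96 log2 fold changes, of which 95 kept their sign and 1, that of Agtrap without MR replicate 2, was −0.016, where without the other libraries Agtrap reached at most 0.060; in the members whose groups do not overlap a stable sign was nearly fixed. The number of members past the threshold, 1 in the reported fit, was 0 with library totals only and with the filter of 1 CPM in 4 libraries, and 2 (Ace and Agtr1a) with no low-count filter, DESeq2, limma-voom and the length trend removed. It was 0 to 2 with a library left out. The number of genes past the threshold among all tested, 76 in the reported fit, was 936 with no low-count filter, 618 in DESeq2, 457 in limma-voom, 232 with the length trend removed and 3 to 887 with a library left out. The cause was not tested. The highest of these was without Sham replicate 3 and the lowest without Sham replicate 2. Library totals only gave 75.7% of calls higher in MR, against 52.6% in the reported fit. With a library left out, the difference of the Nr3c2 to Nr3c1 ratio was −0.50 to −0.34, with exact permutation p of 0.0286 or 0.0571. The added ratios ran from 0.13 to 0.21 for Ace to endothelial markers, and for Agtr1a from −0.49 to −0.35 against pericyte and smooth muscle markers and from −0.19 to −0.12 against heart muscle markers. No paired analysis was possible because the replicate numbers pair no libraries across groups. Depth limits Agt, Mas1, Ren1 and Agtr2 most, whose counts were the lowest of the members.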
